A study of Mus musculus with 13 samples.

Results

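The 10 genes described here encode surface molecules that tune signals through the T cell receptor (TCR): the adhesion pair Cd2 and Cd48, the inhibitory scavenger receptors Cd5 and Cd6, the co-stimulators Cd27 and Cd28, the checkpoint receptor Ctla4, and Cd7, Cd69 and Cd44. They were taken by name from the 47937 genes of the deposited count table, and all 10 were found there. Several of them were selected on the size of their difference between the stages, so the stage differences are given as a description without a test. Their differences between genotypes were not part of the choice and were tested.

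RNA was sequenced from CD4-CD8- double negative (DN) thymocytes sorted at the DN3 stage, before β-selection, and the DN4 stage, after it, in 13 libraries from 7 C57BL/6 mice. The Wt group is WT;Lck-Cre+ and the KO-labelled group is Opa1fl/fl;Lck-Cre+, so both carry Cre under the Lck promoter, which is active in developing T cells, and the floxed gene encodes OPA1, a protein of the mitochondrial inner membrane. A DN3 and a DN4 library came from each of 3 KO-labelled mice (KO45, KO49, KO51) and 3 Wt mice (WT05, WT46, WT48), and WT40, a further Wt mouse, is represented by DN4 cells alone, so the replicates are separate mice. Their age is labelled as 6 weeks, and none was treated.

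At β-selection, a thymocyte that has made a functional TCR β chain signals through the pre-TCR, divides, and switches from the CD25-high DN3 state to the CD25-low DN4 state. CD5, CD6 and CD69 are known to be induced by pre-TCR and TCR signals, CD27 is a marker of DN3 cells that have begun to pass the checkpoint, and CD2 is carried by most thymocytes after the checkpoint. CD28 and CTLA-4 share the ligands CD80 and CD86, with CD28 adding to activation and CTLA-4 opposing it, and CD44, the hyaluronan receptor, is one of the surface proteins by which DN stages are sorted.

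Before the genes themselves, the labels and libraries were checked. Il2ra, which encodes the CD25 of the gate, was at 727 to 1337 CPM (read counts relative to library sizes scaled by the trimmed mean of M values, TMM) in the 6 DN3 libraries and 9.78 to 24.1 CPM in the 7 DN4 libraries. A sum of 10 DN3 markers did not separate the stages. It was 5366 to 5880 CPM in DN3 and 2923 to 5549 CPM in DN4, where KO45 (5549) lay within the DN3 range. Opa1 was at 88.6 to 93.8 CPM in KO-labelled and 91.1 to 112 CPM in Wt DN3 libraries, and at 77.0 to 87.9 and 85.1 to 93.8 CPM in DN4, and counts over the whole gene cannot show the loss of single exons. The libraries held 5926848 to 14148661 counts. WT05 stood apart in DN3, since a few genes that each held at least 2% of that library took 38.9% of its counts, against 0.389% to 1.58% for the same genes in the other libraries. The summed level of 8 B cell markers was 48.9 to 82.3 CPM in DN3 and 307 to 3305 CPM in DN4, lowest in KO51 and highest in WT48 in DN4. Summed CPM of 8 markers of immature single positive (ISP) and double positive (DP) thymocytes was 625 to 829 in DN3 and 1214 to 4459 in DN4, highest in KO45, where Cd8a was at 1133 CPM and Cd4 at 671 CPM. In bulk RNA, a change in the number of cells of a type and a change in the RNA of each cell cannot be told apart. Xist had 10672 to 20604 counts in the libraries of 5 mice, all KO-labelled mice among them, and 0 to 2 in those of WT40 and WT46, so genotype and sex were not balanced.

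Cd28 and Ctla4 lie next to each other on chromosome 1 and are related in sequence, yet their stage differences had opposite signs. The loop through which both receptors bind CD80 and CD86 was located by a run of 6 amino acids that both share. Its bases could therefore differ only where the amino acid stays the same, and they do not measure how close the genes are. The stretch shown holds 60 coding bases around that loop. It lies in exon 2 of 4 in each gene (GENCODE M21, GRCm38, plus strand), at chr1:60763254-60763313 for Cd28 (codons 118 to 123 of 218 for the loop) and chr1:60912692-60912751 for Ctla4 (codons 134 to 139 of 223). Capitals mark the 18 bases of the loop codons.
Cd28: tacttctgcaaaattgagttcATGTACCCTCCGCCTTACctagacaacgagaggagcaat
Ctla4: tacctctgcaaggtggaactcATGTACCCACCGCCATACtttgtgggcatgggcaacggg
The loop was identical at 16 of 18 bases, with 4 of 6 codons the same, and the whole stretch at 38 of 60 bases.

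RefSeq promoter windows (GRCm38.p6) were at hand for 5 of the 10 genes: Cd5, Cd27, Cd48, Ctla4 and Cd44. The 250 bases before the RefSeq start site of 3 of them are shown because they stand for a gene that was higher in DN4 (Cd5, chr19:10738975-10739224, minus strand), one that overlapped between the stages (Cd48, chr1:171681742-171681991, plus strand) and one that was lower (Ctla4, chr1:60908775-60909024, plus strand). The Ctla4 window lies inside the gene as GENCODE places it (60887000 to 60915832), since the RefSeq start site is not the GENCODE gene start. Capitals mark matches to letters of factor families with known roles in thymocytes, searched on both strands: CANNTG for E proteins, TGTGGT for the RUNX family, AGATAA for factors of the GATA family and TTCAAAG for the TCF family.
Cd5: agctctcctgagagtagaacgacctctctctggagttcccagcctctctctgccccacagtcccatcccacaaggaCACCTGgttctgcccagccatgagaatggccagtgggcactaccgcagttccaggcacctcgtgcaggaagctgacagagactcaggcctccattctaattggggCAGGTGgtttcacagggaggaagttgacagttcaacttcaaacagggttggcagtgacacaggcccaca
Cd48: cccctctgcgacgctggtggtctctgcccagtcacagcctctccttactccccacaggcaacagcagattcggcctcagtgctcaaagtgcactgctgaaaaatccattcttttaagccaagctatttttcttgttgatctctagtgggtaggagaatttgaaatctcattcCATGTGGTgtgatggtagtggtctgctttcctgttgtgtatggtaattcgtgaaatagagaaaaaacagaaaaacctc
Ctla4: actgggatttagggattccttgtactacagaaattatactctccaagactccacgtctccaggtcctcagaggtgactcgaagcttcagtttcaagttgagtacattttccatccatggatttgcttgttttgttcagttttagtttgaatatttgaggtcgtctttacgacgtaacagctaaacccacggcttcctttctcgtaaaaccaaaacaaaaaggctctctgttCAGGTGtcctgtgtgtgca
CANNTG was found 2 times before Cd5, 3 times before Cd27 and 1 time each before Cd48 and Ctla4, and it was present in 66.2% of all 32851 windows. TGTGGT was found 1 time, before Cd48 and overlapping its CANNTG, and in 14.0% of all windows. AGATAA was found 1 time, before Cd44, and in 10% of windows, and TTCAAAG in none of the 5 and 4.5% of all. These are matches of letters only.

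**Figure D1:**
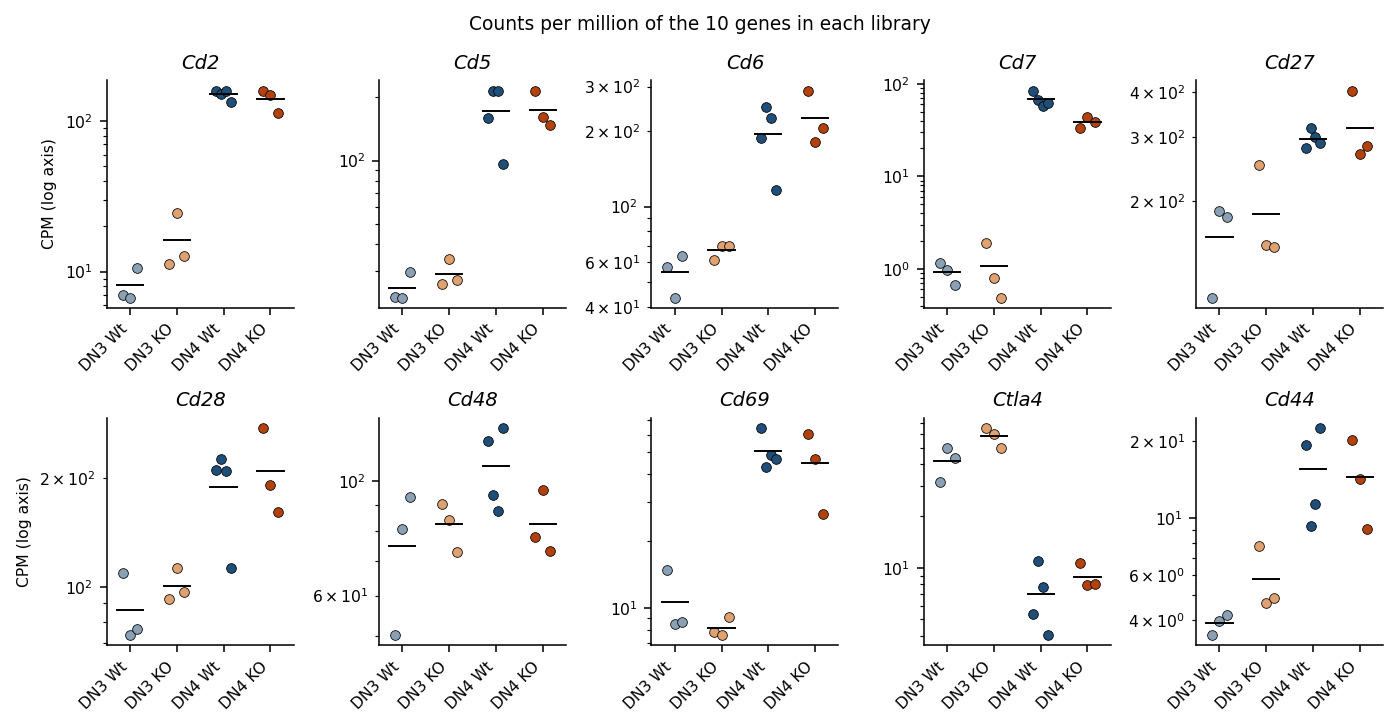
Each panel plots 1 gene, with CPM on a log axis for every library (points) and the group mean (line) in DN3 and DN4 of Wt and KO-labelled (KO) mice. Ctla4 is the gene whose DN4 libraries lie below all DN3 libraries, and Cd48 the one whose stages overlap in both genotypes.

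In Wt mice, 8 of the 10 genes had every DN4 library above every DN3 library, Ctla4 had every DN4 library below, and Cd48 overlapped. Over all 12691 genes tested, 35.0% did not overlap between the stages, 20.0% higher and 15.0% lower in DN4. The counts were again 8, 1 and 1 in KO-labelled mice, against 38.7% of 12580 genes without overlap (22.0% higher, 16.7% lower). Since the stage comparison was used to choose several of the genes, nothing is read from these counts. The median log2 change of the 10 genes was 1.88 in Wt and 1.50 in KO-labelled mice, against -0.03 and -0.02 over all genes tested.

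Cd2 (chromosome 3, 101275899 to 101287939), the adhesion receptor that binds CD48 in the mouse, was at 7.02, 6.73 and 10.6 CPM in the DN3 libraries of WT05, WT46 and WT48 and at 158, 152, 158 and 134 CPM in the DN4 libraries of WT05, WT40, WT46 and WT48. In KO-labelled mice it was at 11.3, 24.4 and 12.8 CPM in DN3 and 159.7, 149 and 114 CPM in DN4 (KO45, KO49 and KO51 in turn). The stages were far apart in both genotypes, and in DN3 all 3 KO-labelled libraries lay above all 3 Wt libraries. The log2 change from DN3 to DN4 was 4.17 (SE 0.188) in Wt and 3.13 (SE 0.286) in KO-labelled mice.

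Cd48 (chromosome 1, 171682009 to 171705258), the GPI-linked ligand of CD2, was among the most abundant of the genes per kilobase and stood out for how close its stages were. It was at 50.3, 80.7 and 93.2 CPM in Wt DN3 and 119.6, 94.0, 87.6 and 127 CPM in Wt DN4 (mice in the same order as for Cd2). In KO-labelled mice it was at 90.5, 84.1 and 72.9 CPM in DN3 and 78.0, 96.2 and 73.3 CPM in DN4. The stages overlapped in both genotypes, with a log2 change of 0.48 (SE 0.221) in Wt and -0.03 (SE 0.147) in KO-labelled mice. Its lowest Wt value came from the DN3 library of WT05, without which the Wt change was 0.27, and the KO-labelled change lay between -0.16 and 0.06 in fits without 1 library.

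Cd5 and Cd6 are neighbouring genes on chromosome 19 (10717116 to 10739002 and 10789341 to 10830058) whose products sit with the TCR and restrain its signal. Cd5 was at 22.5, 22.4 and 29.6 CPM in Wt DN3 and 160.0, 215, 214 and 96.7 CPM in Wt DN4. It was at 26.0, 34.2 and 27.1 CPM in KO-labelled DN3 and 213, 161 and 147 CPM in KO-labelled DN4. The log2 change was 2.75 (SE 0.296) in Wt and 2.55 (SE 0.173) in KO-labelled mice, and the lowest of the 7 DN4 values was that of WT48.

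Cd6 differed less between the stages than Cd5. It was at 57.4, 43.5 and 63.5 CPM in Wt DN3 and 188, 248, 224 and 116 CPM in Wt DN4. KO-labelled values were 61.4, 70.0 and 70.0 CPM in DN3 and 289, 181 and 205 CPM in DN4. The log2 change was 1.80 (SE 0.265) in Wt and 1.72 (SE 0.174) in KO-labelled mice, with WT48 again the lowest DN4 library and KO45 the highest.

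Cd27 (chromosome 6, 125232622 to 125237010), a receptor of the TNF receptor family whose ligand is CD70, had the highest mean level per kilobase of the 10 genes at both stages in Wt. It was at 108, 188 and 181 CPM in Wt DN3 and 279.8, 318, 301 and 289 CPM in Wt DN4. KO-labelled values were 251, 151 and 149 CPM in DN3 and 404, 269 and 283 CPM in DN4. The log2 change was 0.87 (SE 0.188) in Wt and 0.76 (SE 0.249) in KO-labelled mice, and KO45 was the highest library at each stage. Vamp1, a gene on the opposite strand that overlaps Cd27, had 408 to 3878 counts, and since the strand setting of the counting is not stated, reads of the overlap may be shared.

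Cd28 (chromosome 1, 60716800 to 60773359), the main co-stimulatory receptor of T cells, was at 109, 73.5 and 76.1 CPM in Wt DN3 and 211, 226, 209 and 113 CPM in Wt DN4. It was at 92.2, 113 and 96.9 CPM in KO-labelled DN3 and 276, 192 and 161 CPM in KO-labelled DN4. In Wt the stages were separated by only a narrow margin, between 109 CPM in the DN3 library of WT05 and 113 CPM in the DN4 library of WT48. Between the stages it differed by 1.12 (SE 0.255) on the log2 scale in Wt and 1.03 (SE 0.192) in KO-labelled mice.

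Ctla4 (chromosome 1, 60887000 to 60915832), known for restraining activated and regulatory T cells, was the only one of the 10 genes whose DN4 libraries lay below its DN3 libraries. It was at 31.6, 49.8 and 43.5 CPM in Wt DN3 and 5.41, 10.9, 7.73 and 4.06 CPM in Wt DN4. KO-labelled values were 65.2, 60.5 and 50.1 CPM in DN3 and 10.6, 7.95 and 8.07 CPM in DN4. The log2 change was -2.60 (SE 0.320) in Wt and -2.75 (SE 0.178) in KO-labelled mice, a 6.05-fold and a 6.72-fold lower level. All 3 KO-labelled DN3 libraries lay above all 3 Wt DN3 libraries, the nearest values being 50.1 and 49.8 CPM.

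Cd7 (chromosome 11, 121036747 to 121039418), an immunoglobulin-family receptor of T and NK cells, had the largest stage difference of the 10. In DN3 it was close to absent, with 4 to 11 counts in Wt libraries and 5 to 23 in KO-labelled libraries, or 0.661 to 1.17 and 0.490 to 1.90 CPM. In DN4 it reached 84.4, 66.8, 57.2 and 62.6 CPM in Wt and 33.2, 43.6 and 38.5 CPM in KO-labelled mice. From DN3 to DN4 the log2 change was 6.21 (SE 0.251) in Wt and 5.07 (SE 0.397) in KO-labelled mice, the latter 5.91 without the DN3 library of KO45, and all 3 KO-labelled DN4 libraries lay below all 4 Wt DN4 libraries. The antisense gene Gm11775 that overlaps Cd7 had 0 to 2 counts.

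Cd69 (chromosome 6, 129267325 to 129275436), an early activation antigen that holds cells in tissue by binding the sphingosine receptor S1PR1, was at 14.9, 8.50 and 8.70 CPM in Wt DN3 and 64.3, 43.1, 48.4 and 46.8 CPM in Wt DN4. It was at 7.83, 7.58 and 9.12 CPM in KO-labelled DN3 and 60.4, 46.9 and 26.4 CPM in KO-labelled DN4. WT05 was the highest library at both stages and KO51 the lowest in DN4. Its log2 change was 2.27 (SE 0.245) in Wt and 2.42 (SE 0.294) in KO-labelled mice.

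Cd44 (chromosome 2, 102811141 to 102901665) encodes a protein of the gate, low on the surface at both sorted stages, and its RNA was low but not equal in them. It was at 3.51, 3.98 and 4.18 CPM in Wt DN3 and 19.2, 9.27, 11.3 and 22.4 CPM in Wt DN4. KO-labelled values were 7.75, 4.66 and 4.90 CPM in DN3 and 20.2, 14.2 and 9.06 CPM in DN4. Its log2 change was 1.95 (SE 0.352) in Wt and 1.29 (SE 0.347) in KO-labelled mice, and in DN3 all 3 KO-labelled libraries lay above all 3 Wt libraries.

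**Figure D2:**
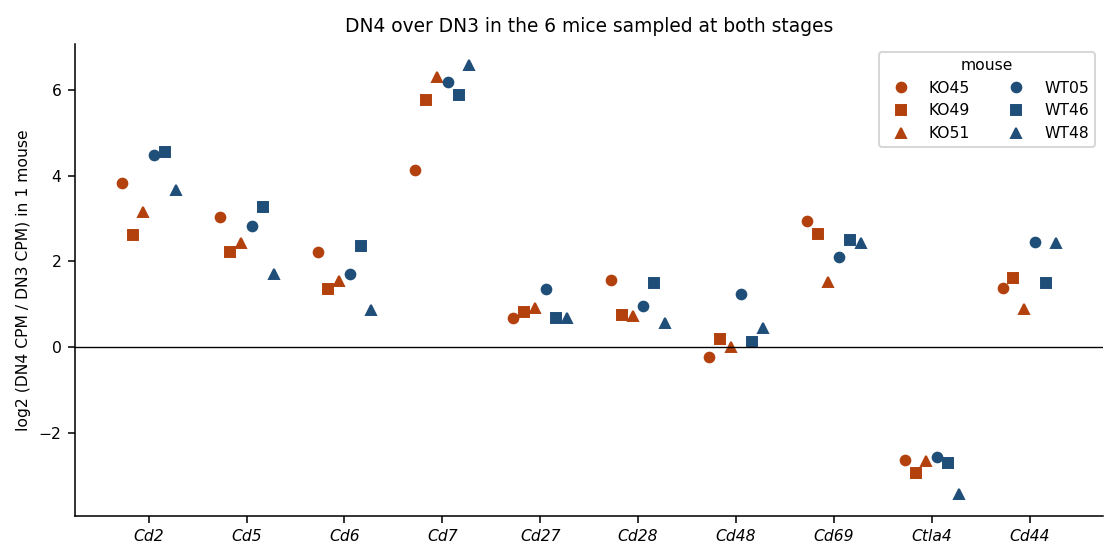
For each gene, the 6 symbols give the log2 ratio of DN4 to DN3 CPM within 1 mouse (orange-brown KO-labelled, blue Wt, 0 line for equal levels). Cd48 scatters around 0, from -0.22 to 1.25, and every mouse is below 0 for Ctla4 alone.

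Within the 6 mice sampled at both stages, Cd2, Cd5, Cd6, Cd7, Cd27, Cd28, Cd69 and Cd44 were higher in DN4 than in DN3 of the same mouse in 6 of 6 mice. Ctla4 was lower in DN4 in 6 of 6, with log2 ratios between -3.42 in WT48 and -2.55 in WT05. For Cd48 the ratio was above 0 in 5 mice and -0.22 in KO45. WT48 had the lowest ratio of the 6 mice for Cd5 (1.71), Cd6 (0.87), Cd28 (0.57) and Ctla4. KO45 had the lowest ratio for Cd7, 4.13 against 5.77 to 6.57 in the others.

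**Figure D3:**
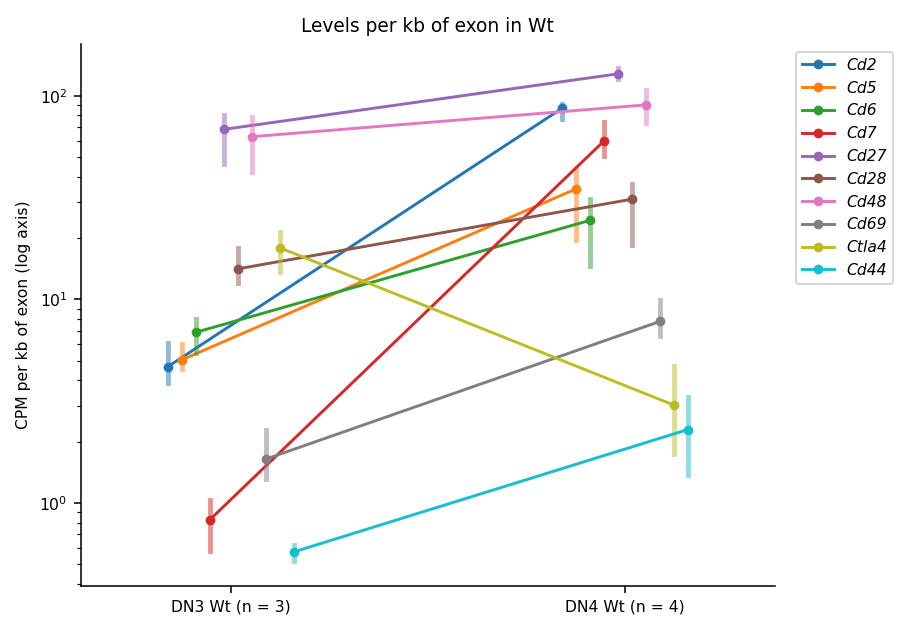
Mean Wt levels in DN3 and DN4 per kilobase of exon on a log axis (points joined by lines, 1 colour a gene, bars from the lowest to the highest library). Cd2 passes 4 of the 9 other genes and Cd7 passes 5, and Ctla4 is the third in DN3 and the ninth in DN4.

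Levels of different genes were compared per kilobase of the gene's exons. In Wt DN3 the order was Cd27 (68.3 ± 19.0 CPM per kb, SD, n = 3), Cd48 (62.9 ± 18.5), Ctla4 (17.9 ± 3.97), Cd28 (14.1 ± 3.22), Cd6 (6.88 ± 1.29), Cd5 (5.04 ± 0.839), Cd2 (4.66 ± 1.23), Cd69 (1.64 ± 0.561), Cd7 (0.825 ± 0.227) and Cd44 (0.574 ± 0.0510). The libraries of these neighbours overlapped: Cd27 with Cd48, Ctla4 with Cd28, Cd6 with Cd5, Cd5 with Cd2, and Cd7 with Cd44. In Wt DN4 (n = 4) the order was Cd27 (128 ± 6.99), Cd48 (90.1 ± 16.2), Cd2 (86.5 ± 6.47), Cd7 (59.8 ± 10.4), Cd5 (34.8 ± 11.4), Cd28 (31.0 ± 8.44), Cd6 (24.4 ± 7.20), Cd69 (7.78 ± 1.44), Ctla4 (3.02 ± 1.29) and Cd44 (2.29 ± 0.925). There, Cd48 overlapped with Cd2, Cd5 with Cd28, Cd28 with Cd6, and Ctla4 with Cd44. Ctla4 and Cd28, which overlapped in Wt DN3, were thus far apart in DN4, where every Wt library had less Ctla4 per kb. KO-labelled DN3 libraries (n = 3) had Ctla4 (25.2 ± 3.32) above Cd28 (16.5 ± 1.82) without overlap, and Cd2 (9.27 ± 4.11) in the fifth place, overlapping with Cd6 (8.43 ± 0.621). KO-labelled DN4 libraries (n = 3) placed Cd2 (80.9 ± 13.6) before Cd48 (69.4 ± 10.2) and Cd7 (33.9 ± 4.59) after Cd5 (35.2 ± 7.07) and Cd28 (34.2 ± 9.69), with all of these neighbours except Cd48 and Cd5 overlapping.

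Whether the genes differed between KO-labelled and Wt mice within a stage was tested with edgeR's quasi-likelihood test across all genes. In DN3, 9 of the 10 genes passed the filter on low counts (Cd7 did not), and 0 were called at an adjusted p under 0.05, by edgeR or by DESeq2. By edgeR 0% of the 12105 genes tested were called, and by DESeq2 0.0248%. At an unadjusted p under 0.05 there were 2, Cd2 and Ctla4, against 1.39% of all genes. The log2 difference was above 0 for 8 of the 9 and below for Cd69, with a median of 0.23 against -0.01 over all genes tested.

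For 3 genes the KO-labelled DN3 libraries lay above all Wt DN3 libraries, against 3.10% of the genes tested. Cd2 was 1.95-fold higher (log2 difference 0.96, SE 0.344, 95% interval 0.18 to 1.75, adjusted p = 1.0, edgeR). Its value was 0.55 without the DN3 library of KO49, the highest of the 3. Ctla4 was 1.39-fold higher (0.47, SE 0.188, interval 0.04 to 0.90, adjusted p = 1.0, edgeR), and Cd44 1.47-fold higher (0.56, SE 0.323, interval -0.18 to 1.29, adjusted p = 1.0, edgeR). Cd44 was at 0.28 without KO45. Without the DN3 library of WT05 the values were 0.89 for Cd2, 0.33 for Ctla4 and 0.51 for Cd44. None of these differences passed the adjusted threshold.

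**Figure D4:**
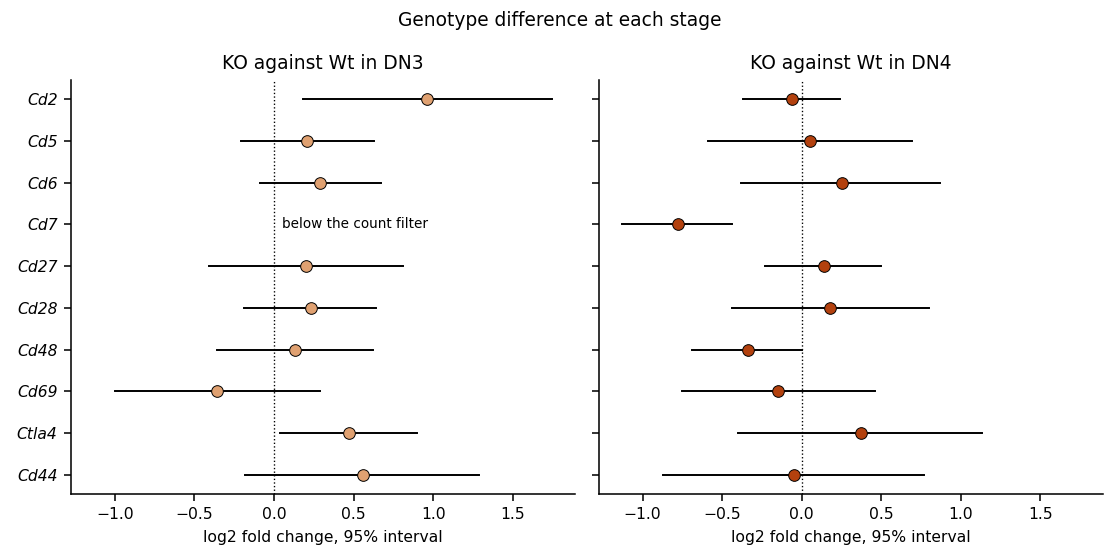
Log2 fold change of KO-labelled (KO) against Wt libraries for each gene (point) with its 95% interval (line), in DN3 on the left and DN4 on the right, with the dotted line at 0. In DN4 the interval of Cd7, -1.13 to -0.44, is the 1 that lies wholly below 0, and in DN3 those of Cd2 and Ctla4 lie wholly above it.

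In DN4, 0 of the 10 genes were called by edgeR, which called 0.0535% of the 13084 genes tested, and 1 had an unadjusted p under 0.05, against 5.46% of all genes. That gene was Cd7, at 67.7 ± 11.8 CPM (SD, n = 4) in Wt and 38.5 ± 5.21 CPM (SD, n = 3) in KO-labelled libraries. Its log2 difference was -0.78 (SE 0.149, 95% interval -1.13 to -0.44, adjusted p = 0.358, edgeR), a 1.72-fold lower level. DESeq2's Wald test, the tool of the study, called it (-0.80, SE 0.172, adjusted p = 0.00205) among 0.390% of the genes. With 1 library left out at a time or another scaling or filter, the value stayed between -0.87 and -0.67, and adjusted p over all alternatives ranged from 0.00205 to 0.999. Non-overlapping lower levels in KO-labelled DN4 libraries were found for 4.34% of all genes tested and for 1 of the 10, Cd7.

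Other values moved with Cd7. The summed level of 8 NK and innate lymphoid markers was 353 to 469 CPM in Wt DN4 and 234 to 345 CPM in KO-labelled DN4. These also did not overlap, with all 8 detected in both groups. For 9 erythroid and stromal markers it was 14.9 to 16.3 CPM and 11.4 to 13.7 CPM, again without overlap. For 6 gamma delta T cell markers it was 723 to 1823 CPM and 559 to 861 CPM, which overlapped, as did the remaining marker lists. The part of these markers in the difference was not tested. With the level of the B cell markers as a covariate, Cd7 differed by -0.78 (adjusted p = 0.0974, edgeR), in a fit that called 0.176% of genes. The 2 Wt mice with Xist counts, WT05 and WT48, had 84.4 and 62.6 CPM of Cd7 in DN4, both above every KO-labelled library, and the part of sex in the difference was not tested.

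None of the other 9 genes passed the test in DN4. Cd48 was nearest (log2 difference -0.34, SE 0.150, interval -0.69 to 0.00, adjusted p = 0.883, edgeR), with 82.5 ± 12.1 CPM (SD, n = 3) in KO-labelled and 107 ± 19.3 CPM (SD, n = 4) in Wt libraries. The intervals of the TCR-signal genes in DN4 were -0.59 to 0.69 for Cd5, -0.38 to 0.87 for Cd6 and -0.75 to 0.46 for Cd69. In DN3 they were -0.21 to 0.63, -0.09 to 0.67 and -1.0 to 0.29 in the same order. For Cd2 the DN4 difference was -0.06 (interval -0.37 to 0.24).

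The interaction of stage and genotype asks whether the step from DN3 to DN4 differed between the genotypes. Of the 10 genes 0 were called by edgeR and 0 by DESeq2, against 0% and 0.0150% of 13361 genes, and 2 had an unadjusted p under 0.05 by edgeR, against 3.59%. These were Cd2 (log2 difference of the steps -1.05, SE 0.356, interval -1.82 to -0.28, adjusted p = 1.0, edgeR) and Cd7 (-1.14, SE 0.512, interval -2.24 to -0.03, adjusted p = 1.0, edgeR). The within-mouse log2 ratio of Cd2 was 2.61 to 3.82 in KO-labelled and 3.67 to 4.56 in Wt mice, overlapping between KO45 and WT48. For Cd7 it was 4.13 to 6.30 and 5.88 to 6.57, on DN3 levels of a few counts. Single DN3 libraries carried much of both values, since the difference of the steps was -0.64 for Cd2 without that of KO49 and -0.32 for Cd7 without that of KO45.

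**Figure D5:**
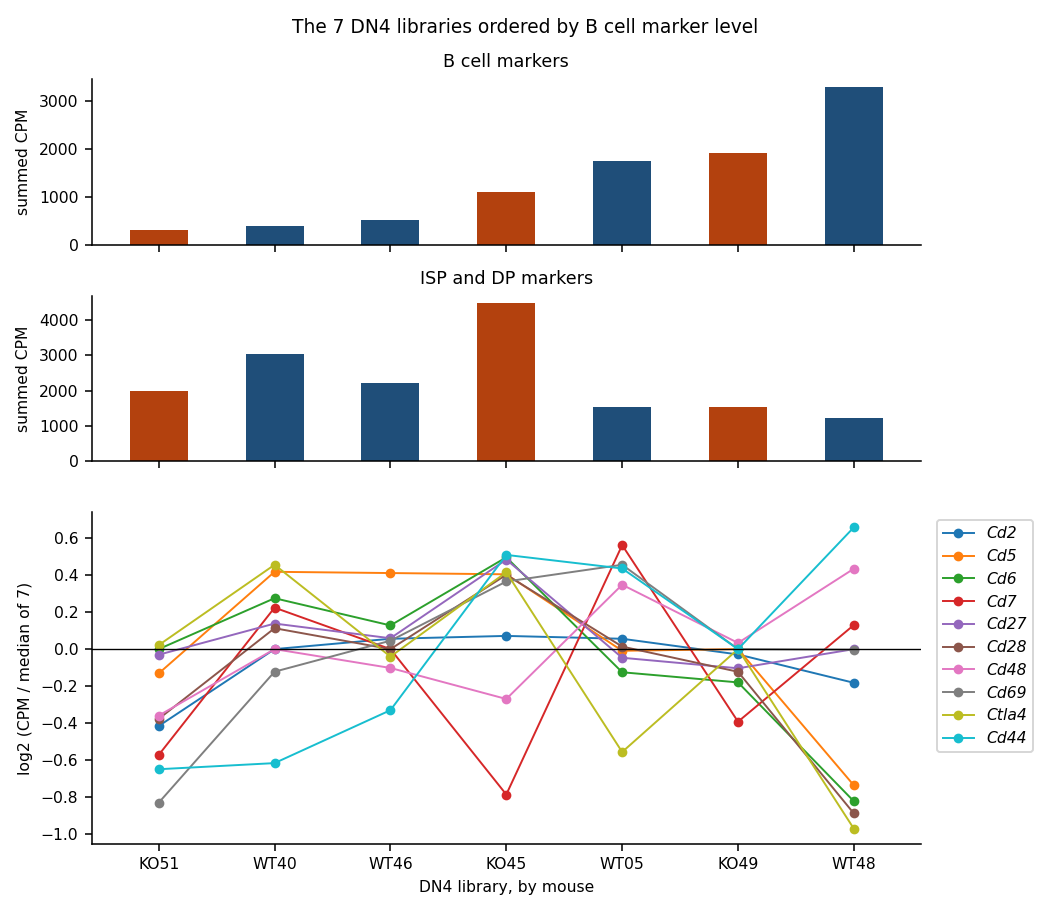
The 7 DN4 libraries (blue Wt, orange-brown KO-labelled) ordered by the summed CPM of B cell markers (top), with the summed CPM of ISP and DP markers (middle) and each gene's log2 CPM relative to its median over the 7 libraries (bottom). WT48, at the right end with 3305 CPM of B cell markers, has the lowest Cd5, Cd6, Cd28 and Ctla4 and the highest Cd48 and Cd44.

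The spread among DN4 libraries had a pattern of its own. Over all 7, the highest library was 1.40 times the lowest for Cd2, 1.51 times for Cd27 and 1.74 times for Cd48, and 2.23 to 2.69 times for the other 7. WT48 had the lowest Cd5 (96.7 CPM), Cd6 (116), Cd28 (113) and Ctla4 (4.06), and the highest Cd48 (127) and Cd44 (22.4). The same library had the highest B cell markers (3305 CPM), the highest gamma delta T cell markers (1823 CPM), the highest DN1 and DN2 progenitor markers (557 CPM) and the lowest ISP and DP markers (1214 CPM). KO45 had the highest Cd2 (159.7 CPM), Cd6 (289), Cd27 (404) and Cd28 (276), and the highest ISP and DP markers (4459 CPM). KO51 had the lowest Cd2 (114), Cd48 (73.3), Cd69 (26.4) and Cd44 (9.06), and the lowest B cell markers (307 CPM). The part of these cell type markers in the differences was not tested.

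The gene most like each of the 10 over the 13 libraries was found by Pearson's r of log2 CPM across 13361 genes, as a description, since the libraries form 2 clusters by stage and any gene that differs between the stages scores high. Cd5 and Cd6 were both most like Trac, the TCR α constant region (0.993 and 0.988). Cd28 was most like Trav9-2, a TCR α variable segment (0.963), Cd2 like Ccr4, a chemokine receptor (0.986), and Cd7 like Nt5e, which encodes the ectonucleotidase CD73 (0.997). For Ctla4 it was Bst1 (0.990), for Cd69 Arhgef11 (0.985), for Cd44 Lzts1 (0.981), for Cd27 Taf8 (0.971) and for Cd48 S100a11 (0.958).

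The wider family was described with 4 lists of 89 other genes, whose stage changes were tested. By edgeR, 22.9% of all genes were called between the stages in Wt (13.4% higher, 9.43% lower) and 18.6% in the KO-labelled group (11.2% and 7.34%). With the mouse as a block, 2340 genes were called in place of 2903 in Wt, where WT40 is left out. In KO-labelled mice it was 4499 in place of 2338. Of 24 other co-receptors and co-stimulatory receptors, all tested, 17 rose and 1 fell in Wt and 15 rose and 1 fell in KO-labelled mice, with a median log2 change of 1.66 and 1.25. Genes near 0 counts in DN3 passed the filter on low counts only through DN4 and so had to differ, which makes the counts and medians of all 4 lists a description. With at least 10 counts in every library required, 12 genes were called in Wt in place of 18 and 13 in KO-labelled mice in place of 16. Markers of other cells moved with the stage: in Wt the summed level was 436 to 526 CPM in DN3 and 723 to 1823 CPM in DN4 for gamma delta T cell markers (6 measured, Il17a at 0 in DN3), 242 to 293 and 353 to 469 CPM for 8 NK and innate lymphoid markers (Ncr1, Klrb1c, Klre1 and Eomes at 0 in DN3, none in DN4), and 56.5 to 75.9 and 82.8 to 557 CPM for 9 DN1 and DN2 progenitor markers. In KO-labelled mice these ranges were 469 to 632 and 559 to 861 CPM, 277 to 327 and 234 to 345 CPM, and 43.5 to 104 and 63.4 to 335 CPM, in the same order, and all 3 overlapped between the stages. Their part in the changes of the 4 lists was not tested. Cd40lg, the ligand of CD40 on helper T cells, had 0 counts in every Wt DN3 library and 6.80 ± 3.19 CPM (SD, n = 4) in Wt DN4, at least 7.75-fold higher with 3 counts in a library as the limit. Crtam, an adhesion receptor of cytotoxic and γδ cells, was at least 5.98-fold higher in Wt. Tnfrsf25, the receptor of TL1A, had 1 to 5 counts in Wt DN3 and 3 to 12 in KO-labelled DN3 libraries. Its fitted log2 change was 4.90 (SE 0.413) in Wt and 3.44 (SE 0.394) in KO-labelled mice. It passed the filter only through DN4, so these values are given without a test. Cd24a, a surface marker of immature thymocytes, was the gene that fell, by a log2 change of -0.56 in Wt (SE 0.128, adjusted p = 0.0151, edgeR) and -0.92 in KO-labelled mice (SE 0.152, adjusted p = 0.00574, edgeR).

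Among 16 other inhibitory receptors, 14 were tested (Havcr2 and Klrg1 were too low), and 12 rose and 1 fell in Wt, against 11 and 1 in KO-labelled mice. With at least 10 counts in every library, 5 were called in Wt in place of 13 and 8 in KO-labelled mice in place of 12, Tigit and Cd200r1 being among those with 0 to 3 counts in Wt DN3. The median log2 change of the genes tested was 2.83 in Wt and 2.36 in KO-labelled mice. The gene with the largest fitted change was Cd22, an inhibitory receptor of B cells, at 0.744 ± 0.884 CPM (SD, n = 3) in Wt DN3 and 321 ± 343 CPM (SD, n = 4) in Wt DN4. Its log2 change was 8.60 (SE 1.37). With 1 to 16 counts in Wt DN3 it passed the filter only through DN4, so the change is given without a test. Cd22 and Cd72, which rose by 4.13 (SE 0.747, adjusted p = 0.00560, edgeR) and was named after its value was seen, act mainly in B cells, whose 8 markers summed to 48.9 to 82.3 CPM in DN3 and 307 to 3305 CPM in DN4. The part of B cell RNA in these changes was not tested. Tigit, a checkpoint receptor of T and NK cells, was at least 10.8-fold higher in Wt DN4. In KO-labelled mice its fitted log2 change was 4.76 (SE 0.733), from 0 to 6 counts in DN3, and is likewise given without a test. Cd200r1, the receptor of CD200, was at least 8.29-fold higher in Wt. Lair1, a collagen receptor, fell by a log2 change of -1.36 in Wt (SE 0.162, adjusted p = 8.7e-04, edgeR) and -1.49 in KO-labelled mice (SE 0.248, adjusted p = 0.00574, edgeR).

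Of 19 ligands of the 10 genes and their relatives, 11 were tested, and 7 rose and 0 fell in each genotype. The KO-labelled count was 3 without the DN3 library of KO51 and 4 without the DN3 or the DN4 library of KO49, while in Wt it was 5 to 7 without 1 library, and with at least 10 counts in every library it was 4 in KO-labelled mice and 5 in Wt. Cd86, a ligand of both CD28 and CTLA-4, had 0 or 1 count in every DN3 library and was at least 8.78-fold higher in Wt DN4 and at least 15.6-fold higher in KO-labelled DN4. Cd80, the other one, was too low to be tested, with 0 to 3 counts in DN3 and 5 to 11 in DN4. Icosl, the ligand of ICOS, rose by 3.39 (SE 0.876, adjusted p = 0.0247, edgeR) in Wt, with 107 ± 108 CPM (SD, n = 4) in DN4. For Pdcd1lg2, the PD-1 ligand PD-L2, the fitted change in Wt was 2.70 (SE 0.498). With 3 to 8 counts in Wt DN3 it passed the filter only through DN4, so its change is given without a test. CD86, ICOS ligand and PD-L2 are known from antigen-presenting cells, B cells included, and the B cell markers above moved with the stage as well, whose part in these changes was not tested. Cd70, the ligand of CD27, did not pass the filter in either genotype.

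Of 30 binding and signalling partners, most of them cytoplasmic, 10 rose, 1 fell and 19 did not pass the test in each genotype, with median log2 changes of 0.28 and 0.22. Without the DN3 library of KO49, 7 were called in KO-labelled mice in place of 11. S1pr1, the receptor that CD69 binds and removes from the surface, had 2 to 15 counts in Wt DN3 and 1 to 13 in KO-labelled DN3 libraries. Its fitted log2 change was 7.02 (SE 0.530) in Wt and 7.12 (SE 0.551) in KO-labelled mice. It passed the filter only through DN4, so these values are given without a test. In Wt it went from 0.906 ± 0.599 CPM (SD, n = 3) to 118 ± 46.2 CPM (SD, n = 4). Traf5, an adaptor of CD27, rose by 3.70 (SE 0.625, adjusted p = 0.00413, edgeR) in Wt. Msn, encoding moesin, which ties CD44 to actin, rose by 1.53 (SE 0.161, adjusted p = 4.4e-04, edgeR) in Wt, from 297 ± 17.2 CPM (SD, n = 3) to 875 ± 144 CPM (SD, n = 4). Trat1, a transmembrane adaptor that regulates CTLA-4 transport, fell in Wt by a log2 change of -0.56 (SE 0.155, adjusted p = 0.0328, edgeR), while the KO-labelled value of -0.37 (SE 0.185, adjusted p = 0.213, edgeR) did not pass. Between the genotypes, 0 genes of the 4 lists were called in DN3, in DN4 or for the interaction, by edgeR or by DESeq2, with 0 of 67, 7 of 79 and 5 of 79 tested at an unadjusted p under 0.05 by edgeR, against 1.39%, 5.46% and 3.59% of all genes. These lists were chosen with results known, and nothing particular to them is read from these shares.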

How the data were processed

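RNA of the 13 libraries had been prepared with a stranded mRNA kit, and the authors mapped reads with STAR and counted them per gene with featureCounts. What the authors deposited are raw counts, whole numbers for each gene. The submitters' processing notes name the build mm10, and the strand setting is not given in the sources used here. Names and coordinates come from GENCODE M21 (GRCm38), in which 47224 of 47937 identifiers were found without their version. Low genes were removed with filterByExpr (minimum count 10), library sizes were scaled by TMM, and edgeR 4.0.16 (R 4.3.3) gave the quasi-likelihood test, with a fit for the groups of each comparison and all 13 libraries for the interaction. Adjusted p-values are Benjamini-Hochberg values over all genes tested, with a threshold of 0.05, two-sided. A 95% interval uses the standard error and the degrees of freedom of that fit. A fold against a group with at most 3 counts in every library is a bound with 3 counts in a library as the limit. Libraries held 5926848 to 14148661 counts (median 10023044), which leaves genes at a few CPM with wide counting error.

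The 10 genes and all lists were chosen with earlier results of these data known. Besides the 10 genes, Il2ra and Opa1, the text names from each related list up to 3 genes per direction with the largest fitted change among those called without overlap in Wt, and the gene most like each of the 10. Other genes, such as marker genes and list members that were not tested, were named after their values were seen. Alternatives were DESeq2 1.42.0, its size factors, library totals, leaving out genes with at least 2% of a library, other count filters, 1 fit for all libraries, each library left out, and the mouse as a block. The B cell marker covariate was chosen after seeing the data. Libraries that share a mouse number come from the same animal, and their deviations from the group means correlated at 0.124 to 0.460 over 13361 genes. No pair of libraries of a group was a duplicate (smallest chi-squared per degree of freedom 6.19). The fits were tested on simulated data.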

Additional observations from a re-analysis of the deposited data

Results flagged for a closer look

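In the DN4 Wt libraries, Cd28 was at 113 CPM in WT48, far from the 209, 211 and 226 CPM of WT46, WT05 and WT40, with a gap to the nearest library above Dixon's 95% critical value for 4 samples. Of the 10 genes tested in this way in this group, Cd28 was the 1 marked, and chance marks about 1 in 20. WT48 also had the lowest Cd5, Cd6 and Ctla4, and its B cell markers summed to 3305 CPM.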

How the results depend on the processing

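Of 941 values recomputed under an alternative, 900 kept their direction and their side of the threshold or moved by less than the limit set for them. Between the genotypes in DN4, the 10 genes gave 1 call with DESeq2 in place of 0, Cd7. With at least 10 counts in every library, 5 inhibitory receptors were called in Wt in place of 13, and 4 ligands in KO-labelled mice in place of 7. Fewer genes are then tested, and the cause of the drop was not tested. Leaving out 1 library at a time gave 3 to 6 called ligands (3 without the DN3 library of KO51, 4 without the DN3 or the DN4 library of KO49) and 7 to 11 partners (7 without the DN3 library of KO49) in KO-labelled mice.

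Signs turned in 32 values of the genotype comparisons and the interaction, none of them called, and the cause was not tested. The stage difference of Cd48 in KO-labelled mice, given without a test and near 0, also changed sign, between -0.16 and 0.06. Over the fits without 1 library, the KO-labelled against Wt difference ranged in DN3 from -0.09 to 0.34 for Cd27 and -0.07 to 0.32 for Cd48. In DN4 it ranged from -0.18 to 0.08 for Cd2, -0.17 to 0.17 for Cd5, -0.09 to 0.26 for Cd27, -0.09 to 0.35 for Cd28, -0.45 to 0.13 for Cd69 and -0.39 to 0.20 for Cd44, which was 0.08 with the B cell covariate. The interaction ranged from -0.31 to 0.06 for Cd6, -0.31 to 0.19 for Cd27, -0.34 to 0.06 for Cd28, -0.13 to 0.41 for Cd69 and -0.33 to 0.14 for Ctla4, and that of Cd69 was -0.09 with library totals.

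With the mouse as a replicate block the interaction was 0.07 for Cd6, 0.01 for Cd28 and 0.14 for Ctla4, -1.01 for Cd2 and -1.06 for Cd7 (both adjusted p = 0.901, edgeR), and no call of the 10 genes changed. Library totals as the scaling moved the median of all genes to 0.23 for the genotypes in DN3, to -0.199 for the interaction and to 0.158 for the stages in Wt, where calls became 1386 higher and 396 lower in place of 1706 and 1197. Beside that shift of 0.23, the DN3 genotype values under library totals were 1.17 for Cd2, 0.67 for Ctla4 and 0.77 for Cd44. Genes near 1 CPM, such as Cd7 in DN3, are limited by their counts.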
